A study of Mus musculus with 3 samples.

Results

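Barcodes over the mitochondrial limit are the droplets that a usual quality filter removes because a large part of their RNA comes from the mitochondrial genome. Here they were all barcodes with more than 200 genes and more than 10% of their unique molecular identifiers (UMIs, the tags that count captured RNA molecules) in genes whose names start with mt-. They numbered 605 of 18340 barcodes, with 167 of 6257 in the hCD33m library, 174 of 5920 in the hCD33M library and 264 of 6163 in the control library. These barcodes were chosen by their mitochondrial share, so that share is given as a description and is not tested. Every profile was instead built from the UMIs outside mt- genes, as CPM, the count of a gene scaled to a common total of those UMIs.

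The study asked what the short (hCD33m) and long (hCD33M) isoforms of human CD33, an inhibitory receptor for sialic acid, do in mouse microglia. Each library held sorted CD11b+CD45lowCx3cr1+ brain cells of 8-week-old mice. hCD33m and hCD33M mice carried the human cDNA behind a floxed stop cassette in Rosa26, opened by Cx3cr1Cre in the microglial lineage, and control mice were labelled wild type. The methods describe mice pooled into 1 library per genotype, so there was no replicate within a genotype, and an inhibitor cocktail against new transcription and translation was in the isolation buffers of all 3 libraries.

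The mitochondrial genome encodes core subunits of respiratory complexes I, III and IV and of ATP synthase, and its RNAs are made and kept inside the organelle. Cytoplasmic mRNAs leak out when a plasma membrane breaks, whereas RNAs held in mitochondria or in the nucleus are lost less readily, which is why a high mitochondrial share is commonly read as a sign of damage. Microglia, the resident macrophages of the brain, are known by P2ry12, Tmem119 and Cx3cr1 and make much secreted and lysosomal protein such as cystatin C and cathepsins.

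The 3 libraries held 40629705 (hCD33m), 36413491 (hCD33M) and 32272657 (control) UMIs. Between 4 and 12 barcode sequences were shared by any pair of libraries, and 3 of the barcodes over the limit had such a twin. The hCD33m library, labelled female although the methods describe males, held 3854 UMIs of the Y-linked Ddx3y and 0 of Xist, like the hCD33M and control libraries labelled male with 3831 and 3074 Ddx3y UMIs. The limits stated in the methods leave 6068, 5710 and 5891 barcodes of hCD33m, hCD33M and control, more than the study states that it kept. No sequence is shown, since the results concern whole profiles.

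Over the limit were 2.67% of hCD33m barcodes (exact 95% interval 2.28 to 3.10%), 2.94% of hCD33M barcodes (2.52 to 3.40%) and 4.28% of control barcodes (3.79 to 4.82%). These intervals, like all that follow, cover counting error only and not the spread between mice. At a limit of 15% the shares were 0.815% in hCD33m, 0.693% in hCD33M and 1.2% in control, and at 20% they were 0.384%, 0.236% and 0.325% with overlapping intervals. The higher share in control at 10% thus did not hold at 20%. Few barcodes were far over the limit: 9 of 167 (hCD33m), 5 of 174 (hCD33M) and 4 of 264 (control) had more than 30% mitochondrial UMIs, and the highest had 46.6%, 49.1% and 46.4%.

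Barcodes over the limit were shallow. Their median was 809 UMIs in hCD33m, 755 in hCD33M and 776.5 in control, against 5080.0, 4971 and 5118 UMIs in the reference cells of the same libraries, defined as barcodes with at most 10% mitochondrial UMIs and at least 2000 and under 12000 UMIs (4295, 3354 and 3639 cells). Among barcodes with under 1000 UMIs, 18.9% (hCD33m), 14.5% (hCD33M) and 18.0% (control) were over the limit, whereas among those with at least 2000 and under 12000 UMIs 5, 2 and 11 barcodes were, or 0.116%, 0.0596% and 0.301%. The amount of mitochondrial RNA itself differed less. Barcodes over the limit held a median of 111, 99 and 112 mitochondrial UMIs, against 68, 63 and 77 in reference cells, so that the high share came with 703, 663.5 and 658.5 UMIs outside mt- genes against 5009, 4903 and 5043.

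**Figure D1:**
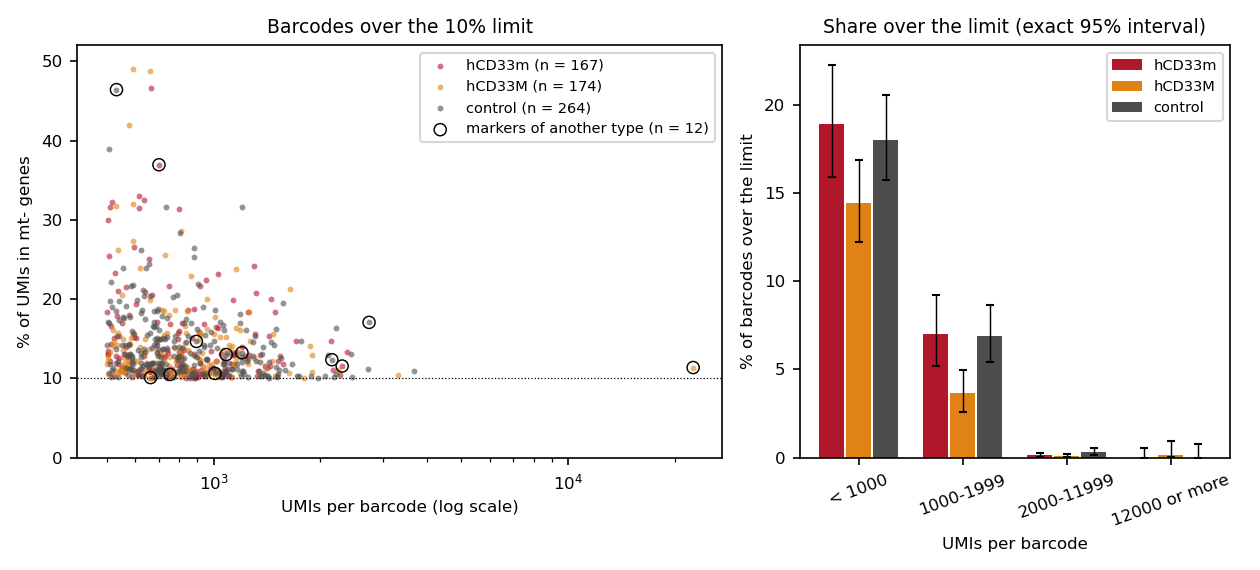
UMIs per barcode (log scale) against the percentage of UMIs in mt- genes for the 605 barcodes over the 10% limit (dotted line), and the share of barcodes over the limit by UMI range with exact 95% intervals, for hCD33m, hCD33M and control. Nearly all points lie under 2000 UMIs, and the circled barcode at 22517 UMIs is from hCD33M.

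A second comparison group removes most of that difference in depth. It held the shallow barcodes, those with at most 10% mitochondrial UMIs and under 2000 UMIs: 1109 in hCD33m, 1787 in hCD33M and 1776 in control, with medians of 1058, 1068 and 1047.5 UMIs and 42, 41 and 41 mitochondrial UMIs. With so few molecules the limit is not sharp. The exact 95% interval of a barcode's own share lay above 10% in 93 of 167 (hCD33m), 91 of 174 (hCD33M) and 153 of 264 (control) barcodes over the limit. Just inside it, at 10 to 11%, were 43, 48 and 62 barcodes with median UMIs of 879, 751.5 and 976, and just outside it, at 9 to 10%, were 62, 63 and 68 barcodes with medians of 838.5, 868 and 922.5. After each barcode was thinned to 400 UMIs, barcodes over the limit had a median of 284.5, 293 and 302 genes (469, 447 and 480.5 before thinning), shallow barcodes 280.0, 278 and 287 (610.0, 609 and 617.5) and reference cells 306, 306 and 304 (2233, 2199.5 and 2238), with 5, 5 and 2 of the barcodes over the limit too shallow to thin.

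All 13 mitochondrial mRNAs were detected, and the share of some of them in the mixture differed from reference cells, as given below. mt-Cytb (apocytochrome b of complex III), mt-Co3 (a complex IV subunit) and mt-Nd2 (a complex I subunit) marked these barcodes, as the rule requires. mt-Co3 (chromosome M, 8607 to 9390, GENCODE annotation of GRCm38) was at 27102, 26314 and 26381 CPM of all UMIs, mitochondrial ones included, in barcodes over the limit of hCD33m, hCD33M and control, against 2477, 2432 and 2881 in reference cells. mt-Cytb was at 20172, 19753 and 20078 against 1876, 1808 and 2135, and mt-Nd2 at 10483, 10130.3 and 10120.1 against 1047, 1058 and 1223.

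The share of each gene within the mitochondrial UMIs is not fixed by the rule. mt-Co3 took 19.3% ± 0.239 of mitochondrial UMIs in barcodes over the limit (SD over 3 libraries), against 18.3% ± 0.305 in shallow barcodes and 17.4% ± 0.217 in reference cells, and its 95% interval lay above both in each library. mt-Cytb took 14.5% ± 0.313, against 14.5% ± 0.165 in shallow barcodes and 13% ± 0.14 in reference cells, higher than in reference cells only. mt-Co1 (the catalytic subunit of complex IV, chromosome M, 5328 to 6872) took 10.7% ± 0.824, against 11.1% ± 0.548 and 13.3% ± 0.885. It was lower than in reference cells in each library, as were mt-Nd5 (0.951% ± 0.0709 against 1.54% ± 0.0764 in reference cells), mt-Nd3, mt-Nd4l and mt-Atp8. mt-Nd1, mt-Nd2 and mt-Co2 had intervals that held 0 against reference cells in each library. The difference to shallow barcodes was smaller than the difference to reference cells for mt-Co3, mt-Cytb, mt-Co1, mt-Nd3, mt-Nd4l, mt-Nd5 and mt-Atp8.

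**Figure D2:**
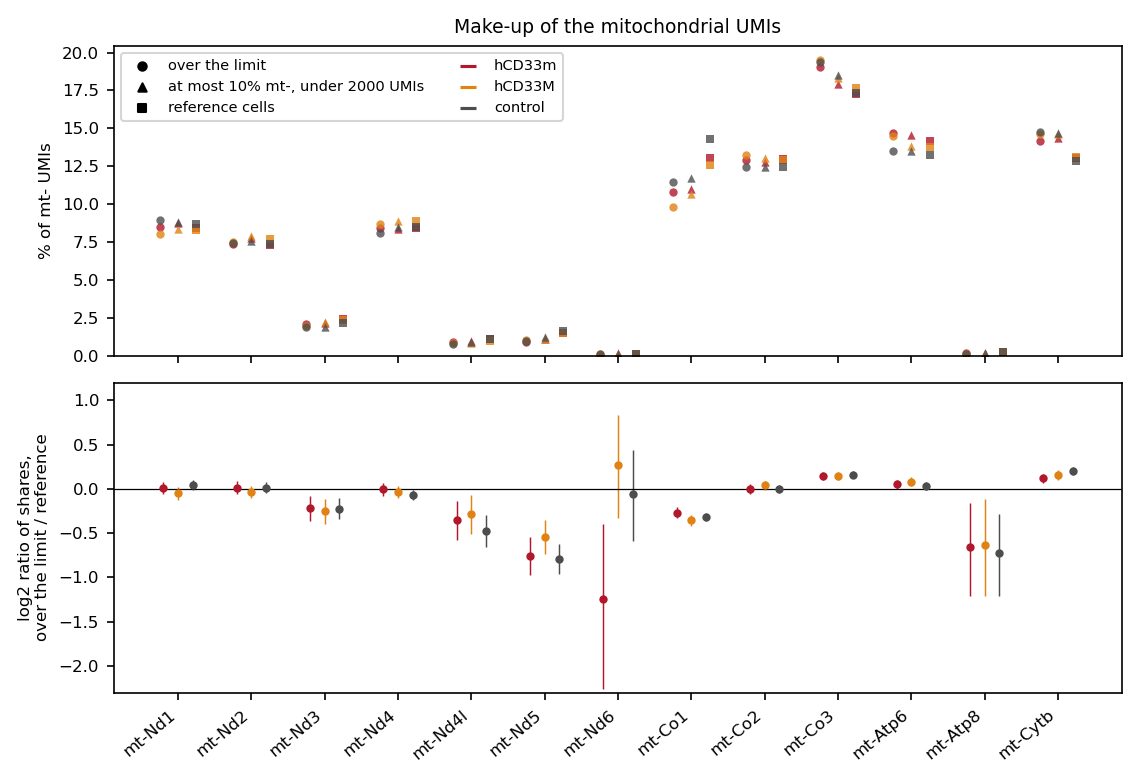
Percentage of mitochondrial UMIs taken by each of the 13 mitochondrial mRNAs in barcodes over the limit, shallow barcodes and reference cells (1 point per library), and the log2 ratio of that share to reference cells with 95% intervals. mt-Co3 and mt-Cytb lie above 0 and mt-Co1, mt-Nd3, mt-Nd4l, mt-Nd5 and mt-Atp8 below 0 in all 3 libraries.

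Outside the mitochondrial genome, the summed profile of the barcodes over the limit differed from reference cells in nuclear noncoding RNAs and in housekeeping mRNAs. A gene was called higher or lower where its CPM ratio was at least 1.5-fold in the same direction, with an exact 95% interval leaving out no change, in each of the 3 libraries, among genes averaging at least 20 CPM. This rule called 237 of 6718 genes higher (3.53%) and 344 lower (5.12%). Since CPM are relative, the split moved with the scaling: TMM scaling, which shifts the median of all genes to a log2 ratio of -0.22 from -0.04, called 134 higher and 509 lower, and CPM without the noncoding RNA list, with a median of 0.06, called 296 and 277. Without the 12 barcodes described below as carrying markers of another cell type, 290 of 6692 were higher (4.33%) and 401 lower (5.99%).

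Of 13 measured nuclear and ribosomal noncoding RNAs, 6 rose and 0 fell, and they summed to 109417, 100433 and 124264 CPM in barcodes over the limit of hCD33m, hCD33M and control, against 52729, 56851 and 51711 CPM in reference cells. Most of these sums was 1 gene, Malat1. It had 100050, 99368 and 111232 CPM in barcodes with 10 to 15% mitochondrial UMIs and under 2000 UMIs. Barcodes equally under 2000 UMIs but with 2 to 4% mitochondrial UMIs had 119472, 116918 and 109062 CPM. Malat1 was thus not higher at the larger mitochondrial share in hCD33m and hCD33M, and differed little in control. Gm42418 (chromosome 17, 39846958 to 39848788), a transcript annotated inside the ribosomal RNA repeat of this assembly, had 8073, 8853 and 11656 CPM against 2758, 3249.6 and 3984 CPM, a mean log2 ratio of 1.51 ± 0.06 (SD, n = 3 libraries). Its values in the 3 libraries over the limit did not overlap those of reference cells, though how many of all genes share that was not counted. AY036118, which overlaps it on the other strand, rose by 1.98 ± 0.35 and its neighbour Gm26917 by 2.12 ± 0.35, and reads of these overlapping loci may not be told apart. Kcnq1ot1, the long antisense RNA of an imprinted locus, had 506, 600.2 and 834 CPM against 248, 259 and 302 CPM. Lars2, whose gene carries a stretch like ribosomal RNA, had 288, 184 and 311 CPM against 105, 106 and 129 CPM.

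The 12 called genes with the largest rise and at least 50 CPM were mostly weakly expressed. Gm43221, an antisense transcript on chromosome 3 (109000024 to 109002094), had 241, 123 and 179 CPM in barcodes over the limit against 29.6, 31.9 and 31.6 CPM in reference cells (mean log2 ratio 2.49 ± 0.54). Grk3, a kinase of G protein-coupled receptors, had 179, 198 and 254 CPM against 48.1, 57.6 and 55.7 CPM, and Snx29, a sorting nexin, 397, 389 and 433 CPM against 109, 107 and 105 CPM. Upf2, a factor of nonsense-mediated decay, varied least between libraries, with 265, 218 and 184 CPM against 79.6, 68.6 and 56 CPM (1.71 ± 0.03). The others were Cd27, Slc38a6, Cacna1d, Gm47283, Gm26699 and Phykpl beside AY036118 and Gm26917, with mean log2 ratios between 1.77 and 2.12. Ptprc, the leukocyte surface phosphatase CD45 used in the sort, also rose, with 879.7, 853 and 998 CPM against 435, 481 and 489 CPM.

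Cytoplasmic ribosomal protein mRNAs were the largest group that fell. Of 82 measured, 75 were lower and 0 higher, and they summed to 25963, 30543 and 23932 CPM in barcodes over the limit of hCD33m, hCD33M and control, against 71363, 65709 and 72309 CPM in reference cells. The log2 ratios of the sums were -1.46, -1.11 and -1.60. Of 20 translation factors, 10 fell, Eef1a1 and Eef1b2 among them. Of 17 actin cytoskeleton genes, 12 fell and none rose: Tmsb4x, which binds actin monomers, had 3091, 3103 and 3325 CPM against 10856, 10807 and 11167 CPM, and Actb had 1993, 2046 and 1973 CPM against 6408, 5886 and 6444 CPM. Pfn1 and Cfl1, regulators of actin turnover, fell by 1.92 and 1.91 on the log2 scale. The mean log2 ratio of all genes had a median of -0.04.

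Among single genes the largest falls were those of housekeeping genes of many pathways. Cyb5a, a membrane cytochrome, had 23.4, 54.6 and 18.8 CPM in barcodes over the limit against 158, 166 and 161 CPM in reference cells (-2.49 ± 0.78), and Psma6, a proteasome subunit, had 15.6, 20.5 and 18.8 CPM against 96.1, 98.8 and 94.1 CPM (-2.41 ± 0.19). Bag1, Trmt112, Dynlrb1, Sf3b5, Lap3, Eloc, Coa3, Cebpzos, Psmd8 and Hmox2 completed the 12, with means between -2.23 and -2.07. Several of these rest on 1 to 5 UMIs in a library, and their ratios are correspondingly wide. The iron storage subunit Ftl1 had 646, 546 and 584 CPM against 1572, 1361 and 1489 CPM, and the antioxidant enzyme Gpx1 93.4, 81.8 and 75.3 CPM against 269, 255 and 245 CPM, both lower in each library.

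Nuclear genes of the respiratory chain did not rise with the mitochondrial mRNAs. With all barcodes, 0 of 37 complex I genes, 1 of 14 genes of complexes II and III and cytochrome c, 1 of 11 complex IV genes and 3 of 15 ATP synthase genes were called lower and none higher. These counts turned on a single barcode of 22517 UMIs in the hCD33M library, which held 13.6% of that library's UMIs in the profile. Complex IV sums were 1089.9, 3185 and 970.1 CPM in barcodes over the limit of hCD33m, hCD33M and control with it, against 2509, 2322 and 2426 CPM in reference cells. Without the barcodes of other types they were 1067, 908 and 989 CPM, and 9 of 37, 5 of 14, 8 of 11 and 11 of 15 genes of these groups were lower. Cox8a, a small nuclear subunit of complex IV, then had 184, 86.9 and 118 CPM against 358, 331 and 363 CPM in reference cells.

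Of 30 homeostatic microglial genes, 5 fell and none rose, a larger share than the 5.12% of all genes called lower: Crybb1, Aif1, Spi1, Rhob and P2ry12. P2ry12, the purinergic receptor of resting microglia (chromosome 3, 59216272 to 59262871), had 2188, 2046 and 1936 CPM in barcodes over the limit against 3375, 3582 and 3467 CPM in reference cells (-0.76 ± 0.12), and Spi1, the PU.1 transcription factor, had 218, 150.1 and 169.5 CPM against 474, 443 and 474 CPM. Without the other cell types 3 of 30 were lower. Of 19 complement and receptor genes, Ptprc rose and Tyrobp and Fcer1g fell. Of 24 lysosomal and secreted genes only Cd63, a tetraspanin of late endosomes, passed, with 1269, 1078 and 965 CPM against 500.4, 443 and 461 CPM. Cst3 (cystatin C), the most abundant of them, had 39679.9, 28831 and 29155 CPM against 54649, 51649.5 and 53930.3 CPM and was below reference cells in each library, but did not pass the fold limit in hCD33m. None of 6 integrated stress response genes and 1 of 15 p53 target and cell death genes (Bcl2a1b, lower) was called, and 2 of 8 heat shock genes, Hspa8 and Hspe1, fell.

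**Figure D3:**
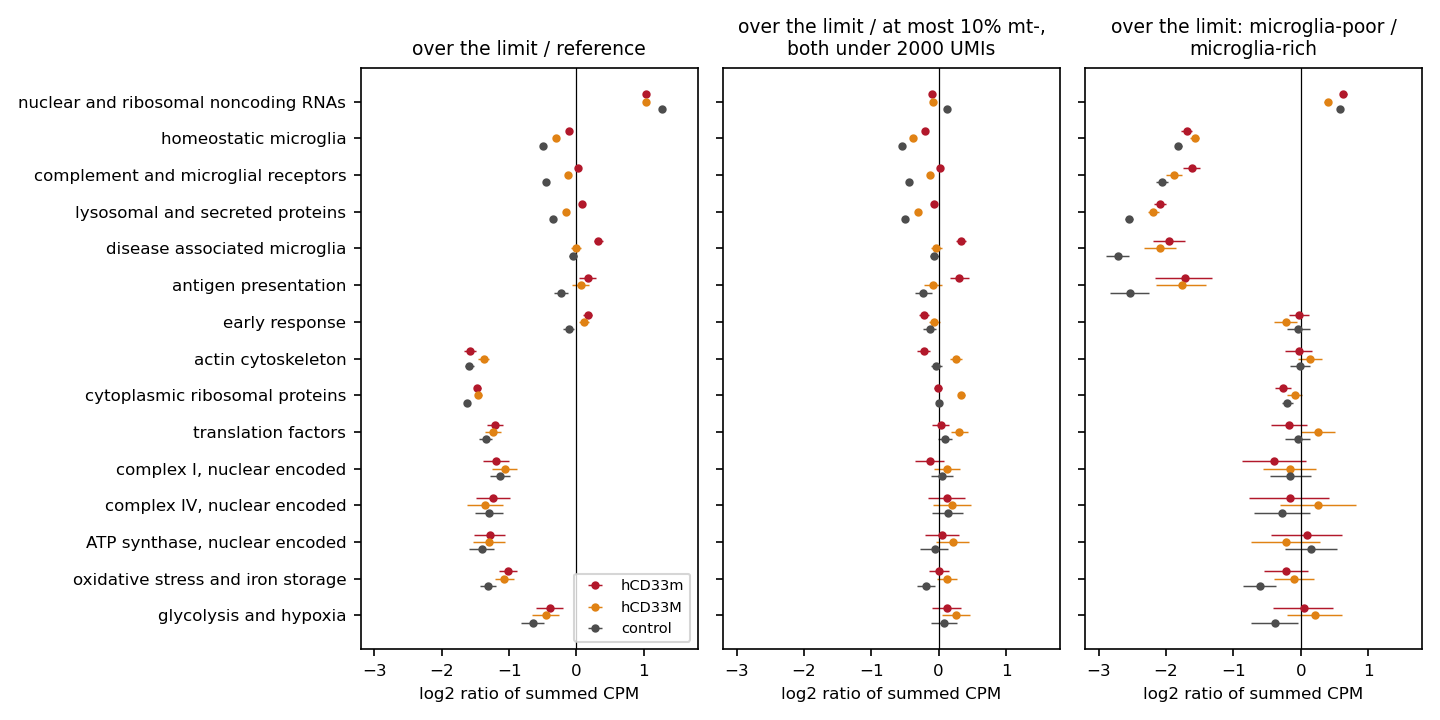
Log2 ratio of the summed CPM of gene lists in each library (points, 95% intervals for counting error), without barcodes of other cell types: barcodes over the limit against reference cells, against shallow barcodes, and microglia-poor against microglia-rich barcodes over the limit, with the 7 markers that define the last split left out. The ribosomal protein, translation factor and actin points lie near -1.0 to -1.6 in the first panel and near 0 in the others.

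A few barcodes over the limit carried markers of cells other than microglia. Counting barcodes with at least 3 marker UMIs of another type and more of them than of 7 microglia markers gave 4 of 167 in hCD33m (2.40%, exact 95% interval 0.656 to 6.02%), 1 of 174 in hCD33M (0.575%, 0.0145 to 3.16%) and 7 of 264 in control (2.65%, 1.07 to 5.39%), against 3 of 1109, 2 of 1787 and 1 of 1776 shallow barcodes and 58 of 4295, 24 of 3354 and 28 of 3639 reference cells. They were 7 with monocyte markers, 3 with markers of border associated macrophages, 1 with choroid and astrocyte markers and 1 with oligodendrocyte and astrocyte markers. The choroid one, in hCD33M, held 7084 UMIs of Ttr (transthyretin) and 407 of Enpp2 among its 22517 and is the only barcode over the limit with 12000 UMIs or more. The 2 deepest monocyte-like ones, in control, held 230 and 160 Lyz2 UMIs and 10 and 15 Ccr2 UMIs. No barcode over the limit met this rule for neurons, endothelial cells, pericytes, fibroblasts, red cells, lymphocytes or neutrophils.

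Set against shallow barcodes, the barcodes over the limit did not show the large falls of ribosomal protein and actin mRNAs seen against reference cells. With both classes under 2000 UMIs, the same rule called 7 of 6383 genes higher (0.11%) and 3 lower (0.047%). Ribosomal protein mRNAs summed to 25724, 24486 and 23564 CPM in barcodes over the limit of hCD33m, hCD33M and control, against 25706, 19440.3 and 23362 CPM in shallow barcodes, with 0 of 82 called. Actin cytoskeleton genes summed to 7894, 8907 and 8109 CPM against 9181, 7477 and 8278 CPM, and noncoding RNAs to 110098, 114624 and 127245 CPM against 116455, 121907 and 116195 CPM. Neither direction held in all 3 libraries for the actin or the noncoding sums. Of the 338 genes lower than in reference cells that were also measured here, 209 kept the sign, with a median log2 ratio of -0.09 here and -1.39 there. Of 236 higher ones 225 kept it, with a median of 0.35 here and 1.11 there. Both sets were chosen on nearly the same barcodes over the limit that are compared here, so keeping the sign is partly built in. Over all 6383 genes the median was 0.08 here.

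Of the 10 genes that the interval rule called, the endosomal sorting receptor Sorl1 had 92.8, 131 and 101 CPM in barcodes over the limit against 39.2, 57 and 43.6 CPM in shallow barcodes, a ratio that varied little between libraries (1.22 ± 0.02). Grk3 had 194, 238 and 259.7 CPM against 94.3, 143 and 112 CPM, Snx29 422, 444 and 482 CPM against 239, 254 and 293 CPM, and lysozyme Lyz2 666, 460.1 and 509 CPM against 298, 295 and 336 CPM. Among the genes called in this comparison, Rin3, a regulator of endocytosis, rose as well, as did Cdk10 and Cul4a, whereas Tmco1, Rnf13 and Ddost, all proteins of endoplasmic reticulum or endosome membranes, fell. Ddost, a subunit of the oligosaccharyltransferase, had 101, 164 and 138 CPM against 191, 264 and 207 CPM.

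edgeR's quasi-likelihood test with library as a block, an alternative chosen after these counts were seen, called 37 of 6383 genes higher (0.58%) and 89 lower (1.39%) at a Benjamini-Hochberg adjusted p under 0.05, and these held 6 of the 7 and all 3 of the genes above. Homeostatic microglial genes were the list with the most falls. P2ry12 had 2260.3, 2276 and 1882 CPM in barcodes over the limit of hCD33m, hCD33M and control, against 3305, 3995 and 3423 CPM in shallow barcodes (edgeR log2 ratio -0.86, adjusted p = 0.00013). Pmp22, Slc2a5, Selplg, Gpr34, Sparc, Cx3cr1, Tmem119 and Olfml3 also fell, and 15 of 30 homeostatic genes did in all. Of the secretory pathway, Pdia3, a disulphide isomerase, had 869, 961 and 689 CPM against 1092, 1407 and 1252 CPM (adjusted p = 0.0016), and the lectin chaperones Canx and Calr fell too.

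Higher under edgeR were Apoe, with 2513, 887 and 2745 CPM in barcodes over the limit against 1191, 794 and 913 CPM in shallow barcodes (0.91, adjusted p = 0.00046), Axl (a receptor for phosphatidylserine-bound ligands, with 2.70, adjusted p = 0.00094), and Gm42418, AY036118, Lars2 and Gm26917 of 12 noncoding RNAs, of which Lars2 and Gm26917 lost the call without the other types (edgeR adjusted p = 0.059 and 0.053). The monocyte gene Ccr2 and Cd74, H2-Aa, H2-Ab1 and H2-Eb1 of antigen presentation were called as well, with Cd74 at 127, 74 and 509 CPM against 27.5, 36.5 and 44.1 CPM. Once the barcodes with markers of other types were left out, Cd74 was not called (edgeR adjusted p = 0.67) and the other 4 were too low to be tested. That fit called 25 of 6373 genes higher (0.392%) and 72 lower (1.13%), all of them among the 37 and 89, and P2ry12 stayed lower (adjusted p = 0.00064).

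The barcodes over the limit differed in how much RNA of 7 microglia markers they held. Poor and rich below refer to these markers and not to microglial RNA in general. The share of UMIs outside mt- genes in the 7, P2ry12, Tmem119, Sall1, Cx3cr1, Csf1r and Fcrls among them, had a low and a high mode. Fewer barcodes lay between them, least clearly in hCD33m, and in control the bin at 1 to 1.5% still held 47 of 264. A limit of 1.5% was chosen after seeing the values, so the groups made with it are a description with no test. Under it, microglia-poor, were 63 of 167 barcodes over the limit in hCD33m (37.7%, exact 95% interval 30.4 to 45.5%), 82 of 174 in hCD33M (47.1%, 39.5 to 54.8%) and 172 of 264 in control (65.2%, 59.1 to 70.9%). Among shallow barcodes the shares were 17.8%, 24.8% and 36.0%, and among reference cells 4.42%, 2.24% and 2.50%. The poor share was thus higher over the limit than in shallow barcodes in each library. Between 1 and 2% of marker UMIs lay 26, 28 and 61 barcodes over the limit. With the limit at 1% the poor shares were 28.7%, 36.8% and 47.3%, and at 2% they were 44.3%, 52.9% and 70.5%.

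**Figure D4:**
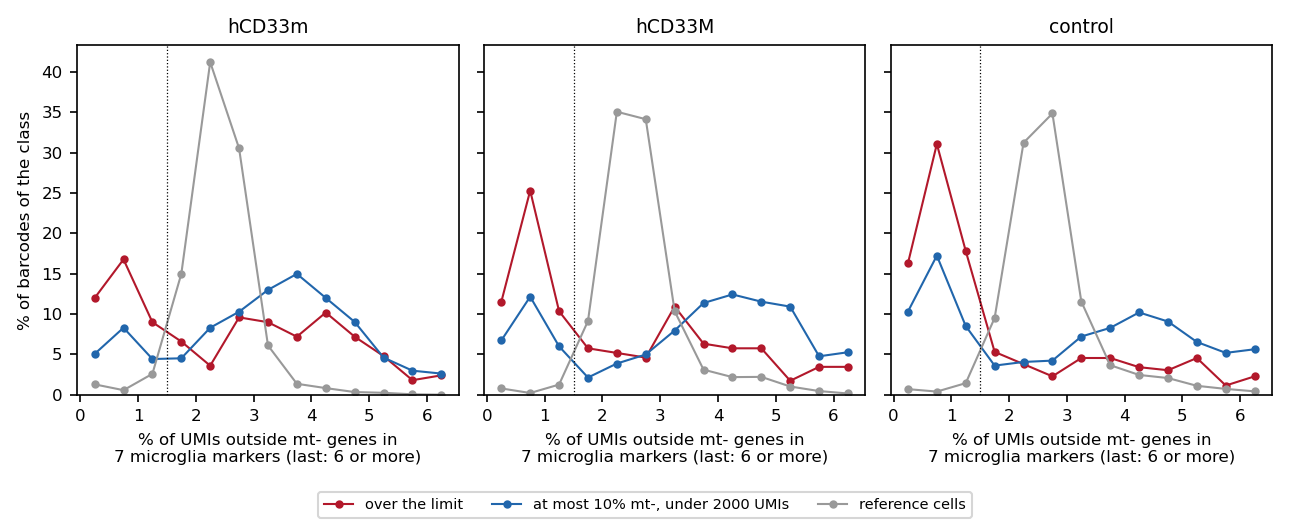
Share of UMIs outside mt- genes in 7 microglia markers (bins of 0.5 points, the last holding 6% and more) for barcodes over the limit, shallow barcodes and reference cells of hCD33m, hCD33M and control. Barcodes over the limit and shallow barcodes show a mode under the dotted line at 1.5% that reference cells hardly have.

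The microglia-poor share also went with the mitochondrial share itself among barcodes under 2000 UMIs. In control it was 28.7% at 2 to 4% mitochondrial UMIs, 54.1% at 8 to 10%, 64.1% at 10 to 15% and 85% above 20% (20 barcodes). In hCD33m it was 13.5%, 19.8%, 30.6% and 66.7% (24 barcodes). In hCD33M it was 19.7%, 35.9%, 48.5% and 57.1% (14 barcodes). The order was not steady: at 15 to 20% the poor share was 44.4% in hCD33m, 37% in hCD33M (27 barcodes), below the bin before it, and 71.2% in control, and barcodes under 2% had poor shares of 24.7%, 33.7% and 38.4%, above those at 2 to 4%. P2ry12 was lower in the same direction, at 1354, 941 and 669 CPM above 20% in hCD33m, hCD33M and control, against 3691, 4183 and 3748 CPM at 2 to 4%. Depth changed along the same bins, with median UMIs of 1186, 1159 and 1205 at 2 to 4%. Above 20% they were 649, 605.5 and 649.5. The part of depth in these shares was not tested. Just outside the limit, at 9 to 10%, 75.8%, 71.4% and 45.6% of barcodes were microglia-rich. Just inside it, at 10 to 11%, 74.4%, 54.2% and 50% were.

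Microglia-poor barcodes over the limit had fewer UMIs, with medians of 620.0, 633 and 708.5 in hCD33m, hCD33M and control, against 914.5, 910.5 and 1106 in microglia-rich ones. Their CPM were lower for mRNAs of secreted and membrane proteins, while the lists of cytoplasmic proteins did not pass. With the 7 markers and the other cell types left out, 90 of 6582 genes were higher (1.37%) and 146 lower (2.22%). Of 23 lysosomal and secreted genes 21 were lower. Ctss (cathepsin S, chromosome 3, 95526786 to 95556403) had 1911, 1117 and 1056 CPM in microglia-poor barcodes against 13687, 12598 and 12604 CPM in microglia-rich ones, and Cst3 had 14764, 14714 and 11227 CPM against 50534, 43463 and 50487 CPM. Of 19 complement and receptor genes 14 were lower, among them C1qa with 3126, 2719 and 2225 CPM against 12888, 14896 and 14218 CPM. Also lower were Cd9 and Trem2 among 7 of 11 disease associated genes, B2m and H2-D1 among 5 of 9 antigen presentation genes, and P2ry13, Gpr34 and Sparc among 10 of 23 homeostatic genes. In the homeostatic list 1 gene was called higher. The largest single fall was that of Rpn2, a subunit of the oligosaccharyltransferase of the endoplasmic reticulum, with 57.9, 21.1 and 46.7 CPM against 488, 581 and 627 CPM. Hspa5 (BiP), a chaperone and the only heat shock list gene called, had 753, 379 and 196 CPM against 1897, 1957 and 1511 CPM.

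The cytoplasmic lists differed little on the CPM scale. Ribosomal protein mRNAs summed to 22435, 23040.1 and 21949 CPM in microglia-poor barcodes over the limit, against 26930.5, 24540.5 and 25208 CPM in microglia-rich ones, with 0 of 82 called, and 0 of 17 actin cytoskeleton genes and 0 of 20 early response genes were called. Tmsb4x had 3184, 3984 and 3468 CPM against 3095, 3345 and 3146 CPM. Several microglial genes without a place in the secretory pathway were as high or higher. Irf8, a transcription factor of microglia and macrophages, had 1274, 1433 and 1234 CPM against 388, 467 and 421 CPM and was called higher, as were Mef2a (1505, 2319 and 2543 CPM against 954, 1149 and 1182 CPM) and Bin1, an adaptor of membrane bending. Mef2c, Spi1 and Runx1, further macrophage transcription factors, were not called. These 6 genes were picked after their values were seen. The largest rises were in Top2b (a DNA topoisomerase), Gm26917, Clasp1, Usp48, Scaf11 and Ddx17, and Gm42418 had 15922, 16463 and 16584 CPM against 5179.8, 6148 and 6610.3 CPM.

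CPM add up to a fixed total, so genes that are lower lift all others. The mean log2 ratio had a median of 0.57 over all 6582 genes. TMM scaling moves every ratio by -0.53 in hCD33m, -0.44 in hCD33M and -0.36 in control. On that scale edgeR counted 101 genes as higher (1.53%) and 562 lower (8.54%). All 23 lysosomal and secreted genes and 17 of 19 complement and receptor genes were then lower. So were 27 of 82 ribosomal protein genes, 5 of 20 early response genes and 3 of 17 actin genes. edgeR differs from the interval rule in scaling and in how genes are called, and these were not varied apart here.

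Within the microglia-rich barcodes, those over the limit were compared with shallow ones that are rich too, both under 2000 UMIs and without other types (100, 90 and 83 barcodes over the limit), again as a description. Median depths of all rich barcodes were 914.5, 910.5 and 1106 UMIs over the limit and 1166.5, 1239 and 1299 in shallow barcodes of hCD33m, hCD33M and control. The interval rule called 7 of 5938 genes higher (0.118%) and 0 lower (0%). Lyz2 had 705, 700.2 and 874 CPM in barcodes over the limit against 278, 309 and 399 CPM in shallow barcodes, Cd63 1616, 1360.0 and 1775 CPM against 750.4, 847 and 834 CPM, and Apoe 3232, 1333 and 5311 CPM against 1092, 850.1 and 1115 CPM. None of these sets overlapped, but the share of all genes without overlap was not counted. Mrc1, the mannose receptor and a marker of border associated macrophages, had 60.7, 135 and 154 CPM against 8.53, 16.6 and 33.9 CPM, and Sorl1, Lag3 and Rps21 completed the 7. The 7 markers of border associated macrophages together summed to 60.7, 135 and 257 CPM against 19, 20.3 and 43 CPM, and their part in the higher Apoe and Lyz2 was not tested. Apoe rested largely on single barcodes, which held 121 of 266, 44 of 99 and 253 of 413 of its UMIs. Without the top barcode of each class its log2 ratio was 1.64, -0.05 and 1.03, against 1.56, 0.65 and 2.25 with it. Lyz2 and Cd63 kept ratios of 1.16, 0.97 and 0.85 and of 1.05, 0.59 and 0.97. Mrc1 in control had a log2 ratio of 0.52 without, and 2.19 with, the barcode that held 9 of its 12 UMIs.

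edgeR counted 10 of those 5938 genes as higher (0.168%) and 7 as lower (0.118%). Pltp, a phospholipid transfer protein, had the largest log2 ratio, 6.50, but was not among the 7 genes called higher by the interval rule. How far its ratio rests on few UMIs or single barcodes was not examined. Apoe, Lyz2 and Cd63 had the smallest p-values, with log2 ratios of 1.55, 1.16 and 0.92. Axl and Cst7 were counted with them, so that 4 of 11 disease associated genes were higher and 0 lower, but both rest on 2 to 7 UMIs per library over the limit, and the 5 Cst7 UMIs of hCD33M came from 1 barcode. Lower were Siglech, a Siglec of microglia, with 1968, 1912 and 1865 CPM in barcodes over the limit against 2833, 2696 and 2651 CPM in shallow barcodes, and Zfp36l1, Maf, Fos, Rhob, Pnisr and Ywhah. Most homeostatic genes were thus not counted once the microglia-poor barcodes were set apart, with 2 of 23 lower. Within the microglia-poor barcodes 0 of 6863 genes were called by the interval rule in either direction (0% and 0%). edgeR counted 0 as higher (0%) and 4 as lower (0.0583%), Mbnl1, Malat1, Lair1 and Nav3, and 88 and 209 at an unadjusted p under 0.05.

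Between genotypes, the early response genes, which cells induce within minutes of a stimulus, had in sum the same order in the barcodes over the limit as in reference cells. Their measured members summed to 14269.8 CPM in hCD33m, 9092 CPM in hCD33M and 5496 CPM in control barcodes over the limit, and to 12607, 9662 and 6071 CPM in reference cells. There was 1 library per genotype and no p was computed. Genes were called on a CPM ratio of 1.5-fold or more whose 95% interval left out no change. Over all genes the rule called 177 of 6516 higher (2.72%) and 226 lower (3.47%) in hCD33m over control, 334 of 6628 higher (5.04%) and 279 lower (4.21%) in hCD33M over control, and 181 of 6459 higher (2.8%) and 255 lower (3.95%) in hCD33m over hCD33M. Over many genes, intervals of this kind leave out no change for some by counting error alone, so these shares serve as the background for the list.

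Beside these shares, 17 of 20 early response genes were higher and 0 lower in hCD33m over control, 12 of 20 and 0 in hCD33M over control, and 7 of 20 and 0 in hCD33m over hCD33M. The study had reported Fos, Fosb, Jun, Egr1 and Klf2 of this list as higher in hCD33m from the same libraries. These counts are therefore a description. The comparisons share libraries and are not independent. The AP-1 subunit Fos had 537 CPM in hCD33m, 239 in hCD33M and 47.1 in control barcodes over the limit, from 69, 35 and 10 UMIs, and 525, 255 and 59.3 CPM in reference cells. Its log2 ratio over control was 3.51 (95% interval 2.55 to 4.63) in hCD33m and 2.34 (95% interval 1.30 to 3.52) in hCD33M. The Kruppel-like factor Klf2 had 452 CPM in hCD33m, 95.5 in hCD33M and 33 in control over the limit. The most abundant members, Jun and the antiproliferative gene Btg2, had smaller ratios: Jun had 2966 CPM in hCD33m, 2067 in hCD33M and 1257 in control. Ier3, Nfkbia and Nfkbiz were the 3 not called in hCD33m over control, and not all genes kept the order, since Ier3 had 54.5 CPM in hCD33m and 13.6 in hCD33M, against 33 in control.

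**Figure D5:**
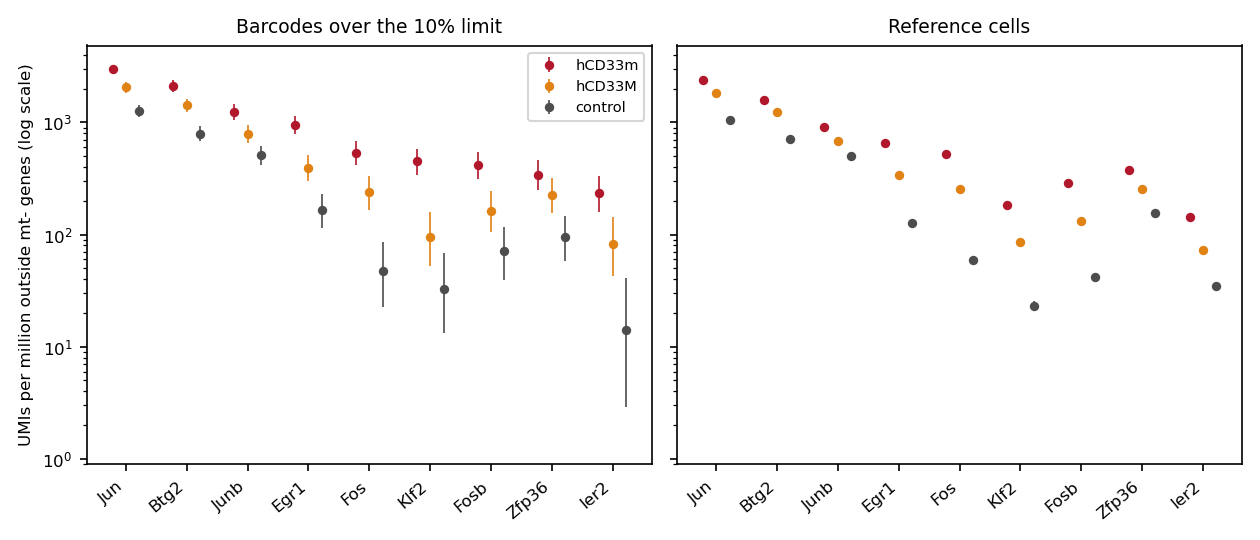
CPM (log scale) of 9 early response genes in barcodes over the limit and in reference cells of hCD33m, hCD33M and control, with exact Poisson 95% intervals for counting error, which for reference cells are smaller than the points. Each of these 9 is ordered hCD33m, hCD33M, control in both classes.

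The counts were similar without the barcodes of other types, with 16 of 20 called higher in hCD33m over control (2.68% of all genes), 14 of 20 in hCD33M over control (2.73%) and 5 of 20 in hCD33m over hCD33M (1.77%). In reference cells they were 17 of 21 (0.89%), 12 of 21 (0.559%) and 8 of 21 (0.453%). The log2 ratio of the summed CPM of hCD33m over control was 1.34 (95% interval 1.16 to 1.52) in microglia-poor and 1.33 (95% interval 1.18 to 1.48) in microglia-rich barcodes over the limit. The share of poor barcodes differed between libraries, and its part in the ratios of all barcodes was not tested. In hCD33M over control it was 0.77 (95% interval 0.59 to 0.95) in poor and 0.96 (95% interval 0.81 to 1.12) in rich barcodes. Library and genotype cannot be told apart here.

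Part of the hCD33M differences went with the barcodes of other types. Without them, 179 genes were higher and 153 lower in hCD33M over control, whereas hCD33m over control kept counts of 174 and 211. In hCD33M over control, 15 of 37 complex I genes and 10 of 11 complex IV genes were higher with the choroid barcode, against 1 of 32 and 1 of 11 without the other types. The genes with the largest ratios were Ttr, with 48324 CPM in hCD33M against 0 UMIs in control, and Enpp2. The monocyte gene Ccr2 had 0 UMIs in hCD33M against 226 CPM in control. The microglia markers P2ry12, Tmem119, Sall1, Cx3cr1 and Fcrls were under 1.5-fold in hCD33m and hCD33M over control: P2ry12 had 2188 CPM in hCD33m and 2046 in hCD33M, against 1936 in control. Mouse Cd33, the endogenous relative of the transgenes, had 436 CPM in hCD33m and 389 in hCD33M, against 569.8 in control, from 56, 57 and 121 UMIs.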

How the data were processed

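The data were whole-number UMI counts per gene and barcode, deposited by the authors from Chromium 3′ libraries that they aligned to mm10 with Cell Ranger and loaded into Seurat, 1 library per genotype. The deposited barcodes had been kept at more than 200 genes and the genes at 3 or more cells. Per-cell doublet calls were not used here. Barcodes with more than 10% of their counts in mt- genes were taken as members. Their counts outside mt- genes were summed per library and compared, as CPM, with sums over reference cells or shallow barcodes of the same library. Ratios carry exact conditional binomial 95% intervals, shares exact Clopper-Pearson intervals, and a count of 0 was replaced by a floor of 3 counts. With no replicate within a genotype, SDs are over the 3 libraries and intervals cover counting error only. Depth limits precision: 1 library's members held 128453 to 212347 UMIs outside mt- genes, so that 3 counts were 14.1 to 23.4 CPM.

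Genes named were the mitochondrial ones, the 12 highest and 12 lowest called genes at 50 CPM or more, up to 6 genes per list, genes the study names, and for genotype the early response list. Other genes are examples chosen after their values were seen. The members and lists were chosen with earlier results of these data known, and the microglia-marker limit and 15 of the 40 alternatives after seeing the data. edgeR 4.0.16 (quasi-likelihood, TMM, library as block) and DESeq2 1.42.0 in R 4.3.3 served as alternatives, with Benjamini-Hochberg adjusted p from models fitted across all genes. Gene positions are from GENCODE M21. Python 3.11.15 and scipy 1.17.1 did the rest, and the scripts were tested on simulated data. Other alternatives changed the mitochondrial limit, UMI range, scaling, weighting, fold, filter and libraries used.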

Additional observations from a re-analysis of the deposited data

Results flagged for a closer look

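Nuclear genes of the respiratory chain differed from reference cells in opposite directions between libraries. The spread of the log2 ratio of summed CPM over the 3 libraries was 1.45 for complex I, 1.46 for complexes II and III and cytochrome c, and 1.78 for complex IV, with hCD33M above 0 and hCD33m and control below 0. Complex IV had log2 ratios of -1.20, 0.46 and -1.32 in hCD33m, hCD33M and control. The difference between libraries was not tested. Without the barcodes that carried markers of other cell types, the choroid one of hCD33M among them, the 3 libraries were on the same side, and complex IV had ratios of -1.23, -1.35 and -1.29.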

How the results depend on the processing

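The share of barcodes over the limit in hCD33m, hCD33M and control was 0.815%, 0.693% and 1.2% at 15%, 0.384%, 0.236% and 0.325% at 20%, and 0.904%, 0.82% and 1.57% among barcodes with at least 1000 UMIs. Against reference cells, 237 genes were higher and 344 lower. The counts were 65 and 101 at a limit of 15%, 17 and 16 at 20%, 24 and 17 with members of at least 2000 and under 12000 UMIs, 7 and 3 with both classes under 2000 UMIs, 711 and 785 with barcodes weighted equally, 84 and 196 at 2-fold, 930 and 1057 with edgeR, and 592 and 614 with DESeq2. TMM scaling gave 134 higher. Leaving out a library, which asks agreement of fewer libraries, gave 286 to 477 higher (402 without hCD33m, 477 without hCD33M) and 411 to 563 lower. Against shallow barcodes, 7 higher and 3 lower became 3 and 19 at 15%, 37 and 89 with edgeR, and 25 and 72 with edgeR without other types, and leaving out a library gave 32 to 41 higher and 4 to 28 lower. Poor against rich, 90 higher and 146 lower, gave 45 higher at a marker share of 1%, 562 lower with edgeR, and 132 to 201 higher and 154 to 221 lower without a library.

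Within barcodes over the limit, hCD33m over control had 177 genes higher and 226 lower. There were 91 and 81 at 15%, 47 and 23 at 20%, 40 and 21 at 2000 UMIs and over, 113 and 80 in microglia-rich barcodes, and 63 lower in microglia-poor ones. The 17 early response genes became 11, 6 and 9 at 15%, 20% and 2000 UMIs and over. hCD33M over control had 334 higher and 279 lower. There were 105 and 61 at 15%, 27 and 9 at 20%, 51 and 15 at 2000 UMIs and over, 179 and 153 without other types, 128 and 92 in rich and 132 and 74 in poor barcodes. Its 12 early response genes became 6, 0 and 4, and 7 at 2-fold. hCD33m over hCD33M had 181 higher and 255 lower. There were 44 and 55 at 15%, 13 and 23 at 20%, 17 and 34 at 2000 UMIs and over, 166 lower at a filter of 50 CPM, 108 and 157 without other types, 98 and 102 in rich and 69 and 63 in poor barcodes. Its 7 early response genes became 3, 2 and 3, and 4 in poor barcodes. All these alternatives on barcodes leave fewer of them, and the cause of each change was not tested further.

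Single genes changed sign only under the smaller sets. In hCD33m over control these were Jund (-0.34), Ier2 (-0.34), Ier5 (-0.67) and Klf6 (-1.57) at 20% and Ier2 (-0.99) at 15%. In hCD33M over control they were Fosb (-1.16), Ier2 (-0.74), Klf2 (-0.74) and Klf4 (-0.16) at 15%, Btg1 (-0.83) at 2000 UMIs and over, and Btg2 (-0.51) at 20%. In hCD33m over hCD33M they were Junb (-0.30) and Klf6 (-1.0) at 2000 UMIs and over, Ier2 (-0.25) at 15% and Klf6 (-0.84) at 20%. Of 361 values of named genes against reference cells 314 kept direction and call, 47 lost the call and 0 changed sign. No paired analysis was possible because each genotype has 1 library, so the groups share only replicate number 1.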

Other observations

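Other metabolic and immune lists were compared between barcodes over the limit and reference cells of the same libraries. With barcodes of other types left out, 5 of 15 glycolysis and hypoxia genes fell, the glycolytic enzymes Gapdh, Aldoa, Ldha and Pkm and the cytokine Mif. Gapdh had 233, 182 and 171 CPM in barcodes over the limit of hCD33m, hCD33M and control, against 607, 543 and 574 CPM in reference cells. Over all genes 5.99% were lower. Of 17 oxidative stress and iron storage genes 5 fell, with Fth1, the heavy ferritin subunit, at 898, 908 and 705 CPM against 2204, 2151 and 2437 CPM. With all barcodes, 1 of 15 (Ldha) and 2 of 17 (Ftl1 and Gpx1) were lower, against 5.12% of all genes, and Hk2, a hexokinase bound to mitochondria, was higher. Of 7 interferon stimulated genes 0 were called, and 1 of 10 chemokine and cytokine genes, Ccl6, fell without the other types.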
